A study of Rattus norvegicus with 6 samples.

Results

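Fragments of the nuclear threonine tRNAs were followed in AR42J, a cultured line from the rat exocrine pancreas. In 3 libraries the cells had been exposed to 200 µM sodium taurocholate, a bile salt, for 30 min. The other 3 libraries came from untreated cells of the same line, and no other genotype or agent separates the groups. Members were the reads whose mature-tRNA alignments were all to nuclear tRNAs with the anticodon AGT, CGT or TGT (ThrAGT, ThrCGT and ThrTGT in the files, here Thr-AGT, Thr-CGT and Thr-TGT), each read counted 1 time. These were 1078 of 67949 distinct tRNA read sequences, or 21470 of 1671615 reads. Reads that matched several Thr anticodons formed groups of their own. Reads that matched Thr and another amino acid were left out, and numbered 17 to 28 per taurocholate library and 20 to 26 per untreated library.

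Threonine tRNAs bring threonine to the ribosome, and the 3 anticodons between them read the threonine codons. When a tRNA is cut, its pieces are called by place. A tRF-3 is a short piece of the 3′ end, cut in the T loop, and carries the bases CCA that an enzyme adds to every tRNA after transcription. tRF-3 come in a shorter form and a longer form, which start at different bases of that loop. A tRF-5 is a short piece of the 5′ end, tiRNA-5 and tiRNA-3 are the long pieces left by a cut near the anticodon, and an i-tRF touches neither end. Here fragments of at most 30 nt count as tRF and those of at least 31 nt as tiRNA. Since length alone sets this, a read counted as tiRNA can end away from the anticodon. A published study of acute pancreatitis speaks of a fragment named tRF3-Thr-AGT that is lower in AR42J cells given taurocholate, and this was the question put to each comparison.

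The 3′ ends of the Thr tRNAs are shown first, since 94.4% of all Thr reads came from them. Capitals mark the final CCA and, where a read reached it, the T-loop motif TTCGA or TTCAA, looked for on the read strand. All are reads of the deposited files. The first 4 lines belong to Thr-AGT copies of chromosomes 1 and 10, the next to a Thr-AGT copy of chromosome 17, and the rest to the other anticodons.
Thr-AGT, longest error-free tRF-3 (27 nt): tgggTTCGAatcccagcggtgcctCCA
Thr-AGT, main longer form (22 nt): tcgaatcccagcggtgcctCCA
Thr-AGT, main shorter form (18 nt): atcccagcggtgcctCCA
Thr-AGT, second shorter form (16 nt): cccagcggtgcctCCA
Thr-AGT, copy chr17.trna3937 (23 nt): TTCGAatcccagcggggcctCCA
Thr-TGT, main form (17 nt): tctcgctggggcctCCA
Thr-TGT, longest error-free tRF-3 (23 nt): TTCAAatctcgctggggcctCCA
Thr-CGT, main form (18 nt): accccgtccgtgcctCCA
Thr-CGT, longest error-free tRF-3 (22 nt): tcgaaccccgtccgtgcctCCA
Thr-CGT or Thr-TGT, copies chr17.trna1881 and chr17.trna1883 (22 nt): tcgaatcccagtggggcctCCA
The last base of the motif lies 19 bases from the 3′ end in each of the 3 lines that show it. The 18-nt read of Thr-AGT therefore starts at the base after the motif, and the 22-nt read starts inside it.

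**Figure D1:**
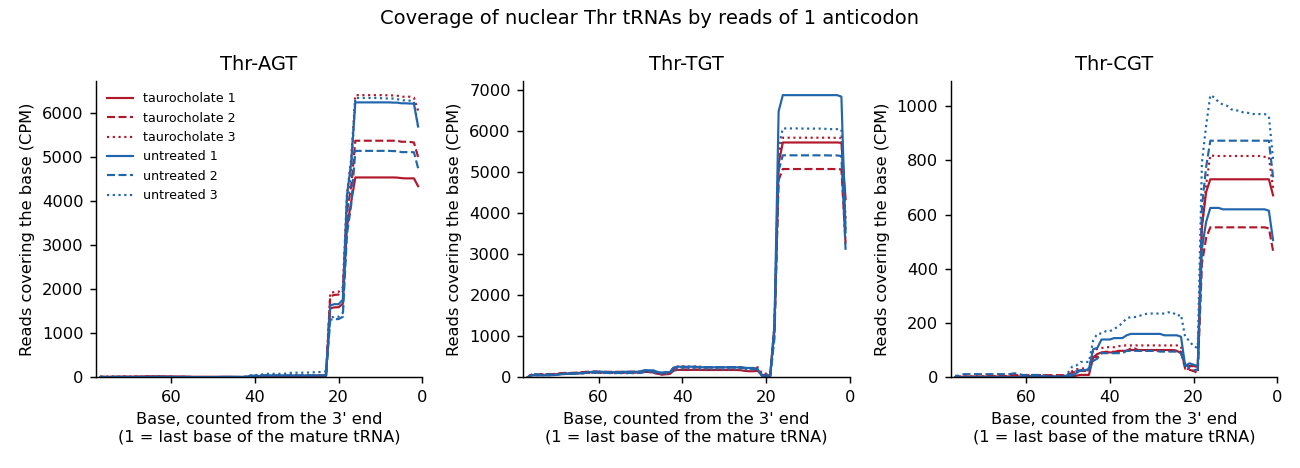
CPM, the count scaled to the tRNA reads of its library (vertical axis), covering each base of Thr-AGT, Thr-TGT and Thr-CGT tRNAs, counted from the 3′ end (horizontal axis), in 1 line per library. Coverage lies almost wholly within the last 22 bases for Thr-AGT, with a step after base 18; it drops after base 17 for Thr-TGT and after base 18 for Thr-CGT, and both have a low plateau of internal fragments farther from the end.

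tRNA reads numbered 338310, 254998 and 306389 in the taurocholate libraries, against 193750, 348451 and 229717 in the untreated libraries. Reads aligned to miRNA precursors numbered 3343552 to 3780777 per taurocholate library and 2791878 to 3987307 per untreated library. Nothing in the labels says whether replicates were separate cultures. The p-values therefore stand for the variation among these libraries alone, and that variation may be technical. Replicate 1 of each group stood apart: a mismatched G was the last base of 21.4% of tRNA reads in taurocholate replicate 1 and of 7.36% in untreated replicate 1, against 1.29% to 1.96% in the other 4 libraries. Of the acinar marker miRNAs, miR-148a-3p was abundant, at 283926 to 406366 CPM of miRNA reads with taurocholate and 351912 to 421622 CPM in untreated cells, while miR-217-5p and miR-216b-5p did not pass 1.1 CPM in any library and miR-216a-5p was at 0. The endocrine pair summed to 41192 to 54696 CPM with taurocholate and 54954 to 59657 CPM in untreated cells, nearly all of it miR-7a-5p. The 4 immune markers summed to 1913 to 3436 CPM with taurocholate and 1874 to 2701.8 CPM in untreated cells, the 5 stroma and muscle markers to 10928 to 15242 and 13718 to 15755 CPM, and the liver marker miR-122-5p to 6.88 to 23.6 and 18.6 to 26.7 CPM. All 6 libraries came from 1 cultured line, so the lists name markers and not cell types shown to be present. Bulk samples do not tell fewer cells from less RNA per cell, and the part of these levels in the results was not tested.

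Threonine fragments took 1.16%, 1.18% and 1.38% of tRNA reads in the taurocholate libraries, against 1.46%, 1.21% and 1.42% in the untreated libraries. The groups overlapped. The means were 1.24% ± 0.124 and 1.36% ± 0.132 (SD, n = 3 each), and an exact permutation test (two-sided) gave p = 0.2, where 0.1 is the smallest that 3 against 3 libraries can give. Almost all of these reads were tRF-3, at 95.2%, 93.7% and 94.9% of Thr reads with taurocholate and 94.3%, 94.1% and 94.1% in untreated cells. Internal fragments took 4.16%, 5.50% and 4.46% with taurocholate and 5.23%, 5.06% and 4.97% in untreated cells, and the exact permutation p was 0.4 for either class. The other classes were rare: over all libraries, 90 reads were tRF-5, 35 tiRNA-5 and 33 tiRNA-3. Reads of 16, 17 and 18 nt made up 27.9%, 30.3% and 23.7% of all Thr reads, those of 22 nt 12.4%, and those of 19 to 21 nt 0.745%, 0.433% and 1.87%, so the longer form was a separate peak.

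The table of all tRNA fragments held 536 features, each a fragment class with an anticodon or set of anticodons. Of the 22 Thr features, 8 passed the filter on low counts, and the other 14 held 207 reads in all, between 1 and 60 each. None of the 8 was called at an adjusted p under 0.05 by edgeR, nor was any of the 235 features tested (0%). DESeq2 called none of the 8 and 1 of the 235. At an unadjusted p under 0.05 edgeR found none of the 8 Thr features, where 10.2% of all features passed (5.53% higher and 4.68% lower with taurocholate), and none of the 8 had groups that did not overlap, where 17.9% of all features tested did. Of the 8, 5 had a fitted log2 fold change above 0 and 3 below, with a median of 0.0067, beside 0.012 over all features.

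The name of the published fragment points to the class tRF-3 Thr-AGT. Its length and sequence were not used here, so the class, which sums all lengths and copies, need not answer for that fragment. tRF-3 Thr-AGT was at 4508, 5329 and 6345 CPM with taurocholate, against 6194, 5088 and 6221 CPM in untreated cells. The highest and the lowest of the 6 values were both taurocholate libraries, so the groups overlapped wholly. The means were 5394 ± 920 and 5834 ± 646 CPM (SD, n = 3 each). After scaling by trimmed means (TMM) the fitted log2 fold change was 0.03 (SE 0.16, edgeR adjusted p 0.953). The interval of 2 SE on each side ran from -0.30 to 0.35, which is 0.815-fold to 1.27-fold. The values leave room for a decrease or increase within that interval, which is not a limit of detection. Larger changes could also be missed with 3 libraries a group. The smallest edgeR adjusted p of all features tested was 0.381. The direction depended on the scaling: the fold change was -0.11 with library totals and -0.02 with TMM factors over tRNA and miRNA together. Library totals moved the median of all features to -0.12, so the class lay close to that median under either scaling. In level it came 17th of 67 tRF-3 features and 43rd of all 536.

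tRF-3 Thr-TGT, just above it at place 42, was at 5726, 5075 and 5839 CPM with taurocholate, against 6880, 5410 and 6051 CPM in untreated cells. The values overlapped, and the log2 fold change was 0.00099 (SE 0.16, interval -0.31 to 0.31, adjusted p 0.997). The Thr-AGT and Thr-TGT levels did not differ beyond their spread, and these features share libraries and total. tRF-3 Thr-CGT was lower than both in every library, at 724, 553 and 816 CPM with taurocholate and 614, 872 and 962 CPM in untreated cells. Its log2 fold change was -0.09 (SE 0.22, interval -0.53 to 0.35, adjusted p 0.890), and became 0.08, 0.02 and 0.01 without taurocholate replicate 2, untreated replicate 2 and untreated replicate 3. tRF-3 that Thr-CGT and Thr-TGT copies of chromosome 17 share were at 65.0, 47.1 and 104 CPM with taurocholate and 77.4, 51.7 and 104 CPM in untreated cells, with a log2 fold change of 0.07 (SE 0.35). Within Thr tRF-3 the shares of the anticodons overlapped between groups: Thr-AGT made up 45.9% ± 4.34 with taurocholate and 45.4% ± 1.07 in untreated cells, and Thr-CGT 5.94% ± 0.812 and 6.43% ± 1.72 (SD, n = 3 each), with exact permutation p of 1 and 0.6.

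The 2 forms of tRF-3 Thr-AGT were then separated by length. Reads of 16 to 19 nt were at 2944, 3494 and 4462 CPM with taurocholate, against 4568, 3811 and 4963 CPM in untreated cells. Only taurocholate replicate 3 lay within the untreated range. Their log2 fold change was -0.15 (SE 0.18, interval -0.51 to 0.20, adjusted p 0.754). Reads of 20 to 24 nt were at 1555, 1827 and 1883 CPM with taurocholate, against 1626, 1277 and 1245 CPM in untreated cells. Taurocholate replicate 1 lay below untreated replicate 1, while the other taurocholate libraries lay above all untreated ones. Their log2 fold change was 0.48 (SE 0.20, interval 0.09 to 0.88), which is 1.40-fold, with an unadjusted p of 0.040 and an adjusted p of 0.394. The longer form therefore did not pass the threshold. It stayed between 0.34 and 0.66 under the settings tried for it.

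**Figure D2:**
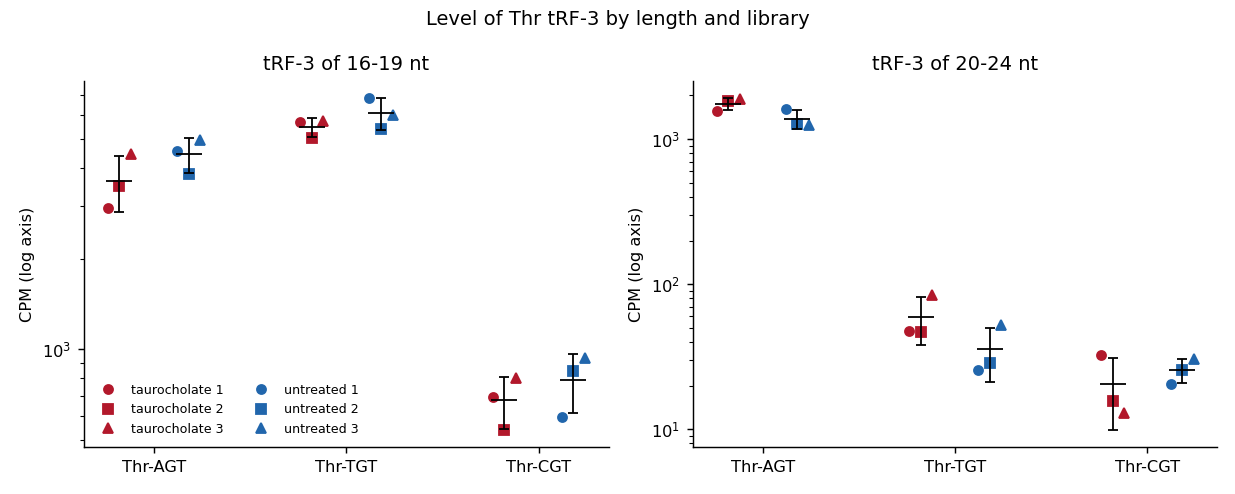
CPM of tRF-3 on a log axis for Thr-AGT, Thr-TGT and Thr-CGT, at 16 to 19 nt and at 20 to 24 nt. Each point is a library, taurocholate left of untreated, and black bars are the mean and SD of 3 libraries; the longer form of Thr-AGT has means of 1755 CPM with taurocholate and 1383 CPM in untreated cells, and the 2 groups overlap there by 1 library each.

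As a share of tRF-3 Thr-AGT of 16 to 24 nt, the longer form took 34.6%, 34.3% and 29.7% in the taurocholate libraries, against 26.3%, 25.1% and 20.1% in the untreated libraries. Every taurocholate library lay above every untreated one, and the share does not depend on the scaling of libraries. The 95% exact binomial intervals were 27.7% to 31.8% for the lowest taurocholate library and 23.8% to 28.8% for the highest untreated library, and cover counting error only, since reads amplified by PCR are not independent molecules. The means were 32.9% ± 2.76 and 23.8% ± 3.29 (SD, n = 3 each). The exact permutation test gave p = 0.1, the lowest possible here. Over the 22 shares compared, the Benjamini-Hochberg value was 0.44, and 5 of them had groups that did not overlap. The shorter reads over all Thr tRF-3 took 85.0%, 82.8% and 84.7% with taurocholate, against 87.7%, 88.3% and 89.8% in untreated cells, with the same p values. Most longer reads of Thr are the Thr-AGT reads just described, so this share of shorter reads is no separate support. The difference of -4.45 percentage points became -0.548 (exact permutation p 0.9) when each read sequence was counted 1 time.

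A higher share of longer reads with taurocholate was measured outside threonine too. In tRF-3 of all other nuclear anticodons together, reads of 20 to 24 nt took 9.57%, 10.3% and 11.2% with taurocholate, against 7.85%, 9.52% and 8.63% in untreated cells, also without overlap (exact permutation p 0.1). Taken by anticodon, 28 of 30 such features of 20 to 24 nt had a log2 fold change above 0, with a median of 0.36 and a range of -0.21 to 1.31, beside 24 of 43 and a median of 0.08 for reads of 16 to 19 nt. In the table split by length, 12.5% of 264 features had an unadjusted p under 0.05, made up of 7.95% higher and 4.55% lower, and none was called (0%; DESeq2 called 1, not of Thr). Of the 10 Thr features tested there, 2 had an unadjusted p under 0.05 by edgeR and 1 by DESeq2. Within Thr most reads of the longer form were of Thr-AGT. It was over 20% of tRF-3 Thr-AGT in every library, against under 1.5% of tRF-3 Thr-TGT and under 5% of tRF-3 Thr-CGT. The tRF-3 shared by Thr-CGT and Thr-TGT had 23 reads of 20 to 24 nt beside 100 of 16 to 19 nt. The longer form was therefore not rare there, and a high share of it was not particular to Thr-AGT.

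**Figure D3:**
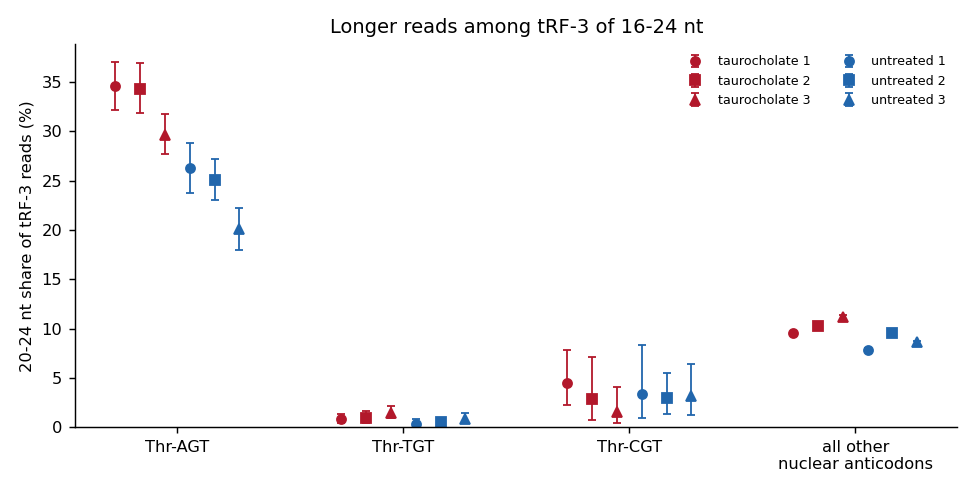
Share of reads of 20 to 24 nt among tRF-3 of 16 to 24 nt, in percent, by library, with 95% exact binomial intervals (those of the last group are smaller than the points). The taurocholate points (red, left) lie above the untreated points (blue, right) for Thr-AGT and for all other nuclear anticodons together, and overlap for Thr-TGT and Thr-CGT.

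The few longer reads of the other anticodons were counted too. tRF-3 Thr-TGT of 20 to 24 nt had 16, 12 and 26 reads with taurocholate and 5, 10 and 12 reads in untreated cells. In CPM these were 47.3, 47.1 and 84.9, against 25.8, 28.7 and 52.2, and 1 untreated library lay above 2 taurocholate libraries. The log2 fold change was 0.89 (SE 0.37, interval 0.15 to 1.62, unadjusted p 0.042, adjusted p 0.394). Reads of 16 to 19 nt of Thr-TGT had a log2 fold change of -0.0058 (SE 0.16), those of Thr-CGT -0.09 (SE 0.22) and those shared by Thr-CGT and Thr-TGT 0.05 (SE 0.33). Thr-CGT of 20 to 24 nt, with 39 reads, did not pass the filter on low counts.

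**Figure D4:**
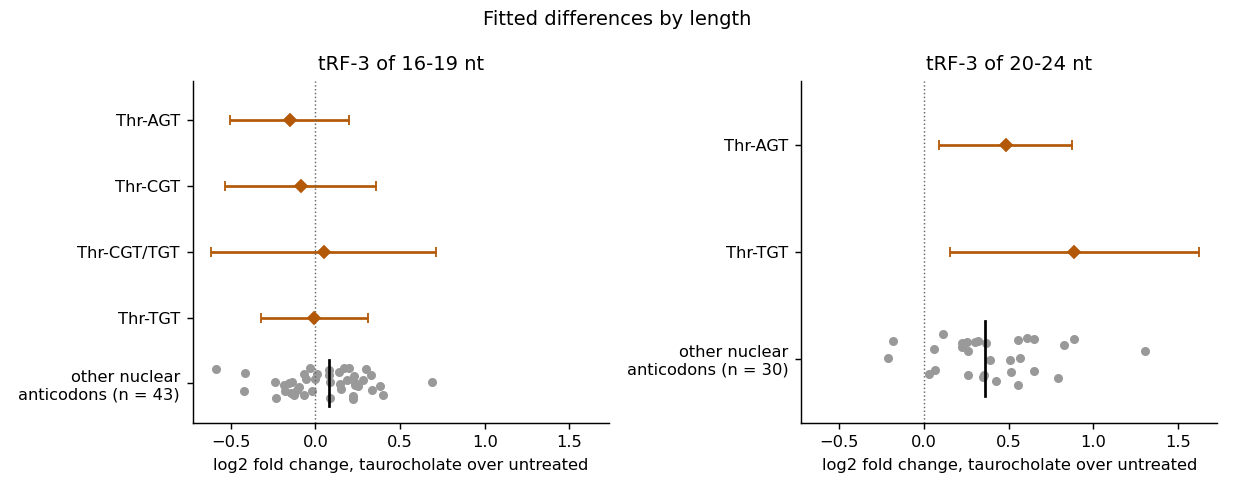
Fitted log2 fold change, taurocholate over untreated, of tRF-3 of 16 to 19 nt (left) and 20 to 24 nt (right). Orange diamonds are Thr features with bars of 2 SE on each side, grey points are the other nuclear anticodons with their median as a black line (0.08 and 0.36); Thr-AGT and Thr-TGT of 20 to 24 nt lie at 0.48 and 0.89, among the grey points.

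Gene copies were told apart as far as the reads allowed. Reads came from 16 Thr tRNA references, of which 7 are Thr-AGT, 4 Thr-CGT and 5 Thr-TGT, and copies with the same 3′ end cannot be separated. Of the 2615 reads of 20 to 24 nt of Thr-AGT, 2457 matched the 3 copies chr1.trna15533, chr10.trna11262 and chr10.trna2464, whose 22-nt read is the second line of sequences above. Over all tRF-3 lengths this group of copies held 2469 reads. It was at 1472, 1761 and 1782 CPM with taurocholate, against 1502, 1194 and 1171 CPM in untreated cells. Its log2 fold change was 0.51 (SE 0.19, interval 0.14 to 0.89, unadjusted p 0.025, adjusted p 0.395). In the table split by gene copy, 11.1% of 271 features had an unadjusted p under 0.05, made up of 7.01% higher and 4.06% lower, and none was called (0%; DESeq2 called 1, not of Thr), and this was the only one of 10 Thr features tested to have one. The shorter reads also match the copy chr10.trna2474, whose own 22-nt read, tcaaatcccagcggtgcctCCA, holds another base near its start and was seen 2 times. Of the 5961 tRF-3 reads that match these 4 copies, 5957 were of 16 to 19 nt. Together they were at 2542, 3231 and 3992 CPM with taurocholate and 4165, 3432 and 4575 CPM in untreated cells. Their log2 fold change was -0.18 (SE 0.18, interval -0.54 to 0.18, adjusted p 0.726). These 2 groups held 26.7% and 64.6% of tRF-3 Thr-AGT reads, and since the shorter reads cannot be split they are, in the main, the 2 length forms under another name.

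The Thr-AGT copy chr17.trna3937, whose end has a sequence of its own, gave 7.61% of tRF-3 Thr-AGT reads. It was at 446, 275 and 499 CPM with taurocholate and 465, 408 and 418 CPM in untreated cells, with a log2 fold change of 0.05 (SE 0.23, adjusted p 0.914). Its 20 to 24 nt reads were few, at 23, 12 and 22 with taurocholate and 16, 23 and 15 in untreated cells, and were 111 of the 702 reads of this copy. In Thr-TGT, 99.9% of tRF-3 reads matched the 3 copies chr10.trna1313, chr15.trna5211 and chr15.trna915, with a log2 fold change of -0.0012 (SE 0.15). In Thr-CGT, 99.7% matched chr10.trna10494 and chr14.trna5981, with a log2 fold change of -0.09 (SE 0.21). The shared end of chr17.trna1881 and chr17.trna1883 gave 75 reads and a log2 fold change of 0.11 (SE 0.46). The copies of chromosome 17 named chr17.trna3666, chr17.trna3718 and chr17.trna1888, and chr10.trna11327, had too few reads of their own to test.

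Single read sequences were tested to see whether a class holds reads that differ in opposite directions. Of 1078 Thr read sequences, 581 were single reads and 89 were seen in all 6 libraries; 42 passed the filter. None was called, nor was any of the 2199 sequences tested (0%; DESeq2 called none). An unadjusted p under 0.05 came in 3 of the 42 with edgeR and 3 with DESeq2, where 8.5% of all sequences had one (4.14% higher and 4.37% lower), and 5 of the 42 had groups that did not overlap, where 17.4% of all did. The most abundant, the 17-nt read of Thr-TGT, was at 1546, 1737 and 2020 CPM with taurocholate and 1507, 1748 and 1915 CPM in untreated cells, with a log2 fold change of 0.18 (SE 0.23). The 18-nt read of Thr-AGT was at 783, 1247 and 1364 CPM with taurocholate and 1161, 1237 and 1341 CPM in untreated cells, with a log2 fold change of -0.0032 (SE 0.27). The 22-nt read was at 689, 1192 and 1182 CPM with taurocholate and 846, 835 and 771 CPM in untreated cells, with a log2 fold change of 0.45 (SE 0.29, adjusted p 0.658). Taurocholate replicate 1 was lowest in each of the Thr-AGT reads just named. There the version of the 22-nt read that ends in a mismatched G was at 532 CPM, against 35.3 and 55.5 CPM in the other taurocholate libraries and 227, 45.9 and 39.2 CPM in untreated cells.

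The 5 sequences that gave the smallest p, and the version of the 22-nt read with a mismatched G, differ from those above in the last bases. They are shown because all 4 that were lower with taurocholate stop 1 base short of the complete end. A final capital marks a mismatched base, and the line named as without mismatch has none.
Thr-AGT, 17 nt: atcccagcggtgcctcT
Thr-AGT, 22 nt: tcgaatcccagcggtgcctccC
Thr-TGT, 16 nt: tctcgctggggcctcT
Thr-AGT, 17 nt without mismatch: atcccagcggtgcctcc
Thr-TGT, 16 nt with another mismatch: tctcgctggggcctcA
Thr-AGT, 22 nt with the mismatched G: tcgaatcccagcggtgcctccG
The 17-nt read of Thr-AGT that ends in a mismatched T was at 32.5, 31.4 and 26.1 CPM with taurocholate, against 119, 43.0 and 82.7 CPM in untreated cells, with a log2 fold change of -1.24 (SE 0.45, adjusted p 0.532). The 16-nt read of Thr-TGT that ends in a mismatched T was at 293, 604 and 512 CPM with taurocholate, against 1234, 720 and 827 CPM in untreated cells, with a log2 fold change of -0.84 (SE 0.36, adjusted p 0.583). The groups did not overlap in either. The 17-nt read without mismatch and the 16-nt read that ends in a mismatched A had log2 fold changes of -1.09 and -0.63, also without overlap. The 22-nt read that ends in a mismatched C had 1.06, with an overlap and an adjusted p of 0.583. These reads were chosen by their p, so their values are a description.

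Summed over all tRF-3 of an anticodon, reads that end 1 base short with a mismatched last base were 1.57%, 1.84% and 1.59% of tRF-3 Thr-AGT with taurocholate, against 48 of 1200 reads, 2.31% and 3.57% in untreated cells. In Thr-TGT they were 12.2%, 19.6% and 17.6% with taurocholate, against 31.4%, 22.1% and 23.7% in untreated cells. Neither comparison overlapped, and both had an exact permutation p of 0.1 and 0.44 after adjustment. Over all 22 shares compared, 5 had groups that did not overlap. These sums include the mismatched reads just named, which were chosen by their p, so they are a description and no separate support. The same share in tRF-3 of other anticodons was not compared. Reads of Thr-TGT that end 1 base short without a mismatch were also apart. They took 11.7%, 16.2% and 15.9% with taurocholate and 16.8%, 20.2% and 16.5% in untreated cells. For Thr-AGT this share was 2.36%, 4.34% and 2.88% with taurocholate and 4.33%, 4.68% and 5.39% in untreated cells. For Thr-CGT it was 4.08%, 7.80% and 6.40% with taurocholate and 6.72%, 7.89% and 8.14% in untreated cells. The groups overlapped in Thr-AGT and in Thr-CGT. In Thr-CGT, reads 1 base short with a mismatched last base were at 4.08%, 7.09% and 7.60% with taurocholate and 10.1%, 7.57% and 8.14% in untreated cells, and overlapped. Complete ends took 53.4%, 81.2% and 81.2% of tRF-3 Thr-AGT with taurocholate and 64.2%, 81.2% and 76.7% in untreated cells. Reads of full length with a mismatched G took 36.4%, 2.06% and 2.42% with taurocholate and 13.9%, 2.82% and 3.43% in untreated cells, so the low complete ends stood in replicate 1 of each group. Leaving out replicate 1 cannot make groups overlap that were already apart, so it is no check on the shares of reads 1 base short. As for length, the longer form of Thr-AGT had a log2 fold change of 0.66 without replicate 1 of both groups.

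**Figure D5:**
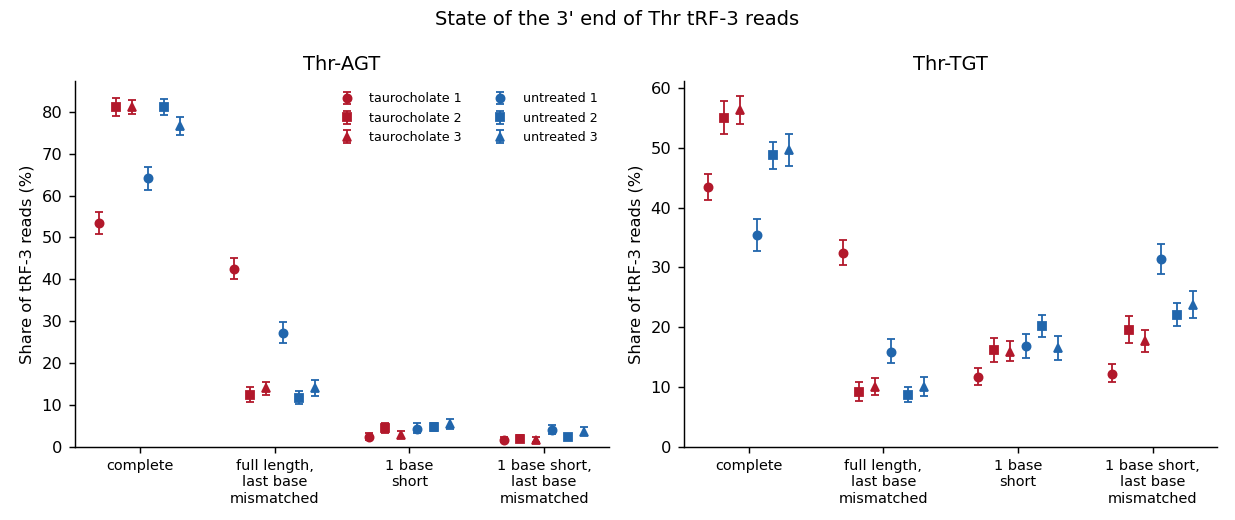
Share of tRF-3 reads by the state of their 3′ end, in percent, for Thr-AGT and Thr-TGT, by library, with 95% exact binomial intervals; red is taurocholate and blue untreated. Reads 1 base short with a mismatched last base lie lower in all 3 taurocholate libraries for both anticodons, and replicate 1 of each group stands apart in the complete ends and in the full-length reads with a mismatched last base.

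Many internal fragments began in or just before the anticodon. They are shown for 4 sets, where a capital marks a mismatched base and the last 2 lines have none.
i-tRF Thr-AGT/CGT/TGT (23 nt): ctGgtaaacaggagatcctgggt
i-tRF Thr-TGT (21 nt): Ctaaaccaggggtcgcgagtt
i-tRF Thr-CGT (22 nt): tcgtaaaccgaagatcgcgggt
i-tRF Thr-AGT (36 nt): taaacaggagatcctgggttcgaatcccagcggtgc
In the first, the capital is the first anticodon base. In mammals the A at that place of tRNA Thr-AGT is changed to inosine, which is read as G in sequencing. Of 203 reads that matched Thr-AGT, alone or with the copies of other anticodons, and covered that base, 198 carried A35G, where position 1 is the first base of the mature tRNA, and 5 carried A. The counts with A35G were 23 of 26, 40 of 40 and 40 of 40 with taurocholate, against 20 of 21, 49 of 50 and 26 of 26 in untreated cells. A read with this G matches the 3 anticodons equally well, since each then has 1 mismatch, so 193 of the 258 reads of the set Thr-AGT/CGT/TGT are reads of this kind. The whole set was at 100.5, 188 and 160 CPM with taurocholate, and its untreated libraries lay between 148.01 and 181 CPM. The groups overlapped, with a log2 fold change of -0.016 (SE 0.28, adjusted p 0.982).

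In Thr-TGT, 161 of 296 reads that matched the copies of chromosomes 10 and 15 and covered the middle anticodon base carried G35C, and 134 carried the reference base. G35C was in 32 of 48, 30 of 48 and 27 of 71 such reads with taurocholate, and in 18 of 32, 35 of 65 and 19 of 32 in untreated cells. Reads with G35C are counted under Thr-TGT here, and whether they came from these copies was not tested. i-tRF Thr-TGT as a whole, these reads included, was at 228, 294 and 297 CPM with taurocholate and 341, 281 and 239 CPM in untreated cells, with a log2 fold change of 0.06 (SE 0.23, adjusted p 0.916). i-tRF Thr-CGT was at 94.6, 106 and 121 CPM with taurocholate and 155, 97.6 and 235 CPM in untreated cells. It had the largest log2 fold change of the 8 Thr features, -0.43 (SE 0.31, interval -1.04 to 0.19, adjusted p 0.619), and the groups overlapped. Without untreated replicate 3 this was -0.10, and without untreated replicate 2 it was -0.67. i-tRF Thr-AGT had 60 reads and was not tested.

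Fragments of the 5′ end were near the limit of the depth. tRF-5 Thr-TGT, whose main read of 30 nt was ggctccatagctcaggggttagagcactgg, was at 38.4, 54.9 and 26.1 CPM with taurocholate and 41.3, 37.3 and 52.2 CPM in untreated cells. Its log2 fold change was 0.012 (SE 0.38). The tRF-5 of Thr-AGT had 15 reads and of Thr-CGT 6. tiRNA-5 of Thr-TGT had 7, 5 and 8 reads with taurocholate and 1, 10 and 4 in untreated cells. The most abundant of these sequences, with 11 reads, was 51 nt long, the greatest read length, and ran past the anticodon. tiRNA-5 of Thr-AGT and Thr-CGT had 0 reads, which allows up to 3 reads a library, or 8.87 to 11.8 CPM in taurocholate libraries and 8.61 to 15.5 CPM in untreated libraries. tiRNA-3 of Thr-AGT, the long pieces of the same 3′ end as the tRF-3 described, had 0, 2 and 4 reads with taurocholate and 3, 5 and 12 in untreated cells. In CPM these were 0, 7.84 and 13.1 with taurocholate and 15.5, 14.3 and 52.2 in untreated cells. With 26 reads in all they did not pass the filter and were not tested, so no difference is read from them. Reads that matched only Thr precursors and are not counted above numbered 86 to 121 per taurocholate library and 67 to 113 per untreated library.

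Across the 6 libraries, the features with the level most like tRF-3 Thr-AGT, by Pearson's r of log2 CPM with a pseudocount of 2 CPM, were tRF-5 Ser-AGA/TGA (r 0.946), i-tRF Lys-CTT (r 0.942) and tiRNA-3 Gly-CCC (r 0.940) of 234 others. They share libraries and depth, and in each of them taurocholate replicate 1 was the lowest library. tRF-5 Ser-AGA/TGA, the closest, was at 458, 1004 and 1485 CPM with taurocholate and 1502, 1050.4 and 1628 CPM in untreated cells.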

How the data were processed

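Small RNA was sequenced from 3 libraries of AR42J cells given taurocholate and 3 of untreated cells, grouped and numbered by the labels. Per the labels' protocols, charged 3′ ends were deacylated, cyclic phosphates removed, 5′ hydroxyls phosphorylated and methyl groups removed before size selection. Novoalign 2.07.11, cutadapt and FastQC are named in the submitters' processing notes. A genome build is not given in the sources used here, and no gene coordinates were used. The deposited values are counts of reads per distinct read sequence and alignment, with at most 1 mismatch, insertion or deletion and lengths of 16 to 51 nt, per the file headers and values.

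Classes were set by place with a tolerance of 3 nt, and each 3′ end was placed at the final CCA found in reads without errors, at position 70 or later. Whole tables were tested with edgeR 4.0.16 (quasi-likelihood, TMM, filterByExpr, Benjamini-Hochberg, adjusted p under 0.05) in R 4.3.3. The fit was also run on simulated data, there without TMM factors. The tables of lengths, copies and sequences used the totals and TMM factors of the feature table. SE was derived from F. CPM values are per tRNA reads without TMM factors. Shares were tested with exact permutation (two-sided). Replicates differed beyond counting noise (chi-square per degree of freedom 18.5 to 108.5). Alternatives were DESeq2 1.42.0, other scalings, no filter, error-free reads, no reads of 51 nt, no tolerance, a replicate block and leaving out libraries. Named features are all Thr features that passed the filter; named sequences are the 2 most abundant of each class, the 3 of each length of tRF-3 Thr-AGT, and the 5 of smallest p, of which the main ones are printed; outside Thr, the 3 features most like tRF-3 Thr-AGT. Fragments of the mitochondrial Thr tRNA are not analysed here. The members and lists were chosen with earlier results of these data known.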

Additional observations from a re-analysis of the deposited data

How the results depend on the processing

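The counts of called Thr features, lengths, gene copies and read sequences were 0 in each setting tried, with unadjusted p under 0.05 in 0 or 1 of the features, 0 to 2 of the length classes, 0 or 1 of the gene copies and 0 to 6 of the sequences (17 with no filter). Over 26 results, 331 alternatives kept direction and side of the threshold and 44 turned direction, all between fold changes that no setting called; 23 of these came from leaving out 1 library. With library totals the log2 fold change was -0.11 for tRF-3 Thr-AGT, -0.14 for tRF-3 Thr-TGT, -0.07 for tRF-3 Thr-CGT/TGT, -0.072 for i-tRF Thr-TGT, -0.135 for tRF-5 Thr-TGT and -0.0745 for the copy chr17.trna3937; all features then had a median of -0.12. With TMM over tRNA and miRNA it was -0.018, -0.033 and -0.037 for tRF-3 Thr-AGT, tRF-3 Thr-TGT and tRF-5 Thr-TGT. With error-free reads it was -0.059 for tRF-3 Thr-AGT, 0.062 for tRF-3 Thr-TGT of 16 to 19 nt and -0.00584 for chr17.trna3937. Without reads of 51 nt it was 0.0043 for i-tRF Thr-AGT/CGT/TGT and 0.026 for tRF-3 Thr-TGT of 16 to 19 nt. Without tolerance at the ends it was -0.45 for i-tRF Thr-TGT, -0.071 for tRF-5 Thr-TGT and 0.30 for tRF-3 Thr-TGT of 16 to 19 nt, as reads that end short of the 3′ end then count as internal. Without both libraries that had many reads with a mismatched last G, an alternative chosen after seeing the data, it was 0.23 for i-tRF Thr-AGT/CGT/TGT, -0.046 for tRF-5 Thr-TGT, 0.023 for tRF-3 Thr-TGT of 16 to 19 nt and -0.019 for chr17.trna3937. The other causes were not tested.

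Leaving out each library in turn gave -0.033 to 0.083 for tRF-3 Thr-AGT, -0.083 to 0.10 for tRF-3 Thr-TGT, -0.25 to 0.076 for tRF-3 Thr-CGT, -0.21 to 0.31 for tRF-3 Thr-CGT/TGT, -0.092 to 0.099 for tRF-3 Thr-TGT of 16 to 19 nt, -0.073 to 0.185 for i-tRF Thr-TGT, -0.205 to 0.15 for i-tRF Thr-AGT/CGT/TGT, -0.24 to 0.30 for tRF-5 Thr-TGT and -0.082 to 0.30 for chr17.trna3937. The share of shorter reads differed by -4.90 to -3.76 percentage points and the Thr share by -0.202 to -0.079.

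The replicate block gave 0 called features, lengths, copies and sequences, and a log2 fold change of 0.022 for tRF-3 Thr-AGT and 0.49 for its longer form (unadjusted p 0.080). For samples of the same number, deviations correlated at -0.175, 0.054 and 0.266. Taurocholate replicate 1 correlated best with untreated replicate 2, at 0.271, and taurocholate replicate 3 with untreated replicate 3. With 3 libraries a group these correlations depend on each other, so they cannot decide whether samples were paired by number. Replicate 1 of each group also shared the many reads with a mismatched last G. At this depth 8 of the 22 Thr features and 42 of the 1078 Thr read sequences passed the filter on low counts. With error-free reads, i-tRF Thr-AGT/CGT/TGT, tRF-5 Thr-TGT and tRF-3 Thr-TGT of 20 to 24 nt left no value after the filter.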
